A study of Mus musculus with 12 samples.

Results

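Polycomb repressive complex 2 (PRC2) is built from the products of a small group of genes, and 8 of them are described here in mouse embryonic stem cells (mESCs) and in NIH3T3 fibroblasts. They are Ezh1, Ezh2, Eed, Suz12, Jarid2, Mtf2, Phf19 and Aebp2. They were picked by gene symbol, without use of any measured value, from the 21905 protein-coding genes that were both annotated on the autosomes and sex chromosomes and listed in the RNA-seq tables. All 8 were found in both tables (in the order given, ENSMUSG00000006920.14, ENSMUSG00000029687.16, ENSMUSG00000030619.9, ENSMUSG00000017548.15, ENSMUSG00000038518.15, ENSMUSG00000029267.17, ENSMUSG00000026873.9 and ENSMUSG00000030232.18), and each was examined for its RNA and for peaks of 7 ChIP-seq lists over the gene body, 1 kb upstream and 5 kb downstream.

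PRC2 places methyl groups on lysine 27 of histone H3 (H3K27), a mark of genes kept silent during development. EZH2 or EZH1 carries the catalytic site, EED binds the methylated product and SUZ12 holds the complex together. Accessory proteins sort the core into alternative forms: MTF2 and PHF19 are Polycomb-like proteins that help bring the complex to unmethylated CpG islands, whereas JARID2 and AEBP2 occur together in another form. In mESCs, PRC2 covers the promoters of many developmental regulators, and cells without it still self-renew but differentiate poorly.

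The mESCs were of the E14 line, which is derived from the early mouse embryo and is pluripotent, and NIH3T3 is a fibroblast line established from mouse embryos. Both were grown in the same medium with serum and LIF, a cytokine that keeps mESCs undifferentiated. For the Ctr9 lists, a GFP tag had been knocked in at the end of Ctr9, a core subunit of the Paf1 complex that travels with elongating RNA polymerase II (RNAPII), in either line, and a sorted mixture of GFP-positive cells was used rather than one clone. NELFA, a subunit of a complex that holds RNAPII near promoters, carried a GFP tag in a separate mESC line, and both tagged proteins were pulled down with an antibody to GFP. The acetylated form of H3K27 (H3K27ac), a mark of active promoters and enhancers, was mapped in both lines with an antibody to the mark. RNAPII phosphorylated on Ser5 of its tail (Ser5p, enriched near promoters) and on Ser2 (Ser2p, enriched late in genes) was mapped in mESCs. For Ser5p, the authors describe the use of the NELFA-tagged cells. With 1 library behind each list and each RNA table, there is no replicate error and no test across conditions was possible, so each difference compares 2 libraries.

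The RNA-seq tables held 26400407 estimated counts in mESCs and 28849497 in NIH3T3 cells over 137767 transcripts. The identity of each line was checked with marker genes. All 5 pluripotency markers (Pou5f1, Sox2, Nanog, Zfp42 and Esrrb) were at 211 to 1402 TPM (transcripts per 1000000) in mESCs, taking the highest transcript of each, and 4 of them were listed at 0 in NIH3T3 cells. All 5 fibroblast markers were at least 2-fold higher in NIH3T3 cells, with a summed TPM of 5582 against 9.15 in mESCs. None of 6 markers of other embryonic cells had a transcript above 2.86 TPM in either line. Sequencing depth is unknown for the ChIP-seq libraries, because the peak lists give no read numbers.

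At the RNA level, 7 of the 8 genes were higher in mESCs and 1, Aebp2, was higher in NIH3T3 cells. A gene was first represented by its transcript with the highest TPM, and a difference of at least 1 between the log2(TPM + 1) values was counted as 2-fold. By this measure Jarid2, Mtf2, Eed and Phf19 were at least 2-fold higher in mESCs, which is 4 of 8, against 23.8% of the 12379 protein-coding genes with a TPM of at least 1 in either library. Aebp2 alone was at least 2-fold higher in NIH3T3 cells, against 20.0% of those genes. The median difference was 1.74 on the log2 scale over the 8 genes and 0.13 over the 12379 genes. In bulk RNA, fewer cells with a transcript and less of it per cell cannot be told apart.

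By the highest transcript, the catalytic subunits differed the least between the lines. Ezh2, which carries the main methyltransferase of dividing cells, had its highest transcript at 67.8 TPM in mESCs against 39.8 TPM in NIH3T3 cells, a log2 difference of 0.76. In mESCs that transcript was Ezh2-213, a stretch of 500 bases with a retained intron, and the protein-coding Ezh2-201 reached 65.3. Summed over its protein-coding transcripts, Ezh2 stood at 151 TPM in mESCs against 67.4 TPM in NIH3T3 cells, a ratio of 2.24. Its estimated counts were 5802 and 3069, and their log2 ratio, scaled to the library totals, was 1.05, with an exact 95% interval of 0.98 to 1.11 that covers counting error only. Ezh2 was therefore on either side of 2-fold depending on how its transcripts were combined.

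Ezh1, the paralogue better known from non-dividing cells, was far lower than Ezh2 in both libraries. Its highest transcript was at 4.96 TPM in mESCs against 3.03 TPM in NIH3T3 cells, a log2 difference of 0.56, whereas its summed protein-coding TPM was 10.5 and 3.81, a ratio of 2.77. The level of Ezh2 divided by that of Ezh1, both as summed protein-coding TPM, was 14.3 in mESCs and 17.7 in NIH3T3 cells, so Ezh2 made up most of the catalytic transcripts in both lines.

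Of the other core subunits, Eed differed much more than Suz12. Eed, whose product reads the trimethyl mark, had its highest transcript at 189.5 TPM in mESCs against 28.6 TPM in NIH3T3 cells, a log2 difference of 2.69. Its counts were 8312 and 1364, with a scaled log2 ratio of 2.74 and an exact interval of 2.65 to 2.82. Suz12, the scaffold of the complex, had its highest transcript at 90.8 and 49.9 TPM, a log2 difference of 0.85, and its scaled log2 ratio of counts was 0.98 with an interval of 0.93 to 1.03. Ezh2, Eed and Suz12 were thus not at one ratio in the 2 libraries. Among these 3, summed protein-coding TPM was highest for Eed in mESCs (219, ahead of Ezh2 at 151 and Suz12 at 104) and lowest for Eed in NIH3T3 cells (32.8, behind Ezh2 at 67.4 and Suz12 at 53.7).

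The widest gap belonged to Jarid2, an accessory subunit that helps PRC2 reach its targets in mESCs. Its highest transcript was at 94.0 TPM in mESCs against 3.67 TPM in NIH3T3 cells, a log2 difference of 4.35. The estimated counts were 16714 and 534, and the exact interval of their scaled log2 ratio was 4.97 to 5.22. Aebp2, which occurs in the same form of the complex as Jarid2, went the other way. Its highest transcript was at 17.9 TPM in mESCs and 45.7 TPM in NIH3T3 cells, a log2 difference of -1.30, and counts of 2473 and 5312, with a scaled log2 ratio of -0.98 and an interval of -1.04 to -0.91. As summed protein-coding TPM, Jarid2 was 4.79 times Aebp2 in mESCs and 0.0836 times Aebp2 in NIH3T3 cells.

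Mtf2 and Phf19, the Polycomb-like members, were both higher in mESCs. The highest transcript of Mtf2 was at 105.9 TPM in mESCs against 9.93 TPM in NIH3T3 cells, a log2 difference of 3.29, and its counts of 11595 and 1424 gave a scaled log2 ratio of 3.15 with an interval of 3.07 to 3.23. Phf19 was the lowest of the 4 accessory genes among the members in each library, its highest transcript lying at 12.4 TPM in mESCs against 1.17 TPM in NIH3T3 cells, with a log2 difference of 2.63. It had only 56 estimated counts in NIH3T3 cells (exact Poisson 95% interval 42.3 to 72.7) against 1051 in mESCs. Its scaled log2 ratio of 4.36 therefore had the widest interval of the group, 3.97 to 4.77. The highest transcript in NIH3T3 cells, Phf19-205, held only 3.82 of those 56 counts.

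The order of the 8 genes by summed protein-coding TPM was not the same in the 2 libraries. In mESCs it ran from Eed (219) and Jarid2 (216) through Ezh2 (151), Mtf2 (107) and Suz12 (104) to Aebp2 (45.1), Phf19 (16.4) and Ezh1 (10.5). In NIH3T3 cells Aebp2 led (93.1), ahead of Ezh2 (67.4), Suz12 (53.7) and Eed (32.8), and Mtf2 (10.5), Jarid2 (7.79), Ezh1 (3.81) and Phf19 (1.53) were low. Eed and Jarid2 in mESCs differed by a ratio of 1.02 and Mtf2 and Suz12 by 1.03, and without replicates neither pair can be ranked. Together the 8 genes reached 868.5 TPM in mESCs against 270.6 TPM in NIH3T3 cells, summed over protein-coding transcripts.

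**Figure D1:**
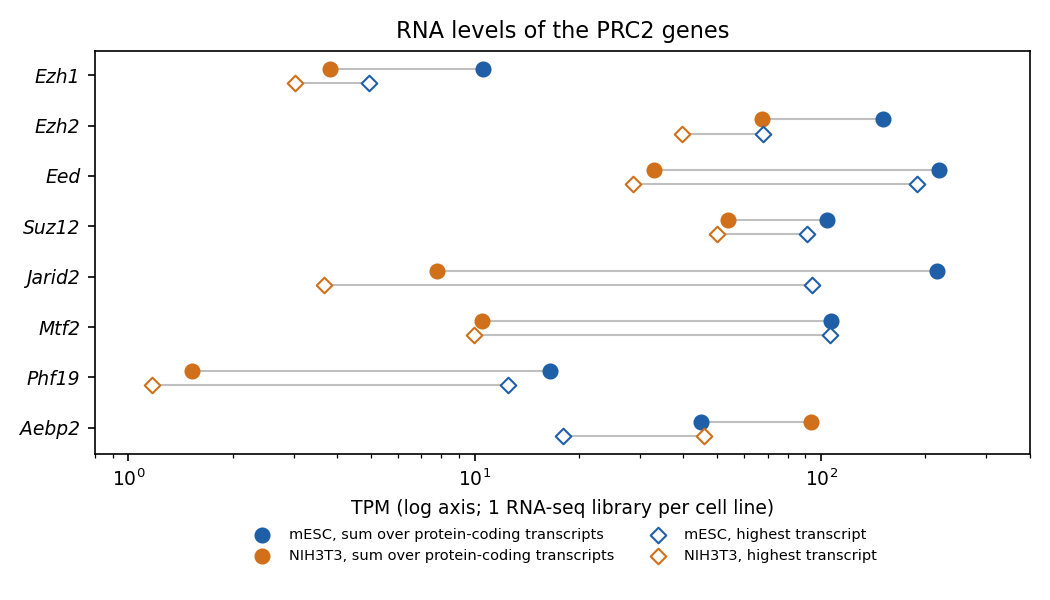
RNA levels of the 8 PRC2 genes in TPM on a log axis, with 1 library per cell line. Filled circles give the sum over protein-coding transcripts and open diamonds the highest transcript, in mESCs (blue) and NIH3T3 cells (orange). The mESC value lies to the right for every gene other than Aebp2, and the gap is widest for Jarid2, at 94.0 against 3.67 for its highest transcript.

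How reads were divided among transcripts decided part of these numbers. The 8 genes had 86 listed transcripts, of which 35 are annotated as protein-coding, 70 were above 0 in mESCs and 61 in NIH3T3 cells. The estimated counts are shares of reads that fit several transcripts, and short annotated fragments receive a high TPM from few reads, so the shares that follow describe the tables as deposited. The protein-coding transcript with the highest TPM was the same in both lines for 6 of the 8 genes, the exceptions being Jarid2 and Phf19. In NIH3T3 cells both exceptions were led by a short fragment with fewer estimated counts than the long form. The share over all genes was not computed.

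For Jarid2, the long transcripts Jarid2-208 and Jarid2-201, which encode 1234 residues each and start 1797 and 1349 bases into the gene, were jointly at 140 TPM in mESCs against 4.11 TPM in NIH3T3 cells, a ratio of 34.1. The highest transcript in NIH3T3 cells was instead Jarid2-204, a fragment of 476 bases, at 3.67. For Phf19, the only long coding transcript, Phf19-201 with 578 residues, was at 12.4 TPM in mESCs against 0.359 TPM in NIH3T3 cells. There the fragment Phf19-205 of 351 bases took 63.6% of the gene's TPM. That share rests on 3.82 estimated counts, against 30.9 for Phf19-201 in the same cells. On the long forms alone, both genes were thus further apart between the lines than on the highest transcript.

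Aebp2 is known for a long and a short protein, and the tables listed several forms. Aebp2-202, which encodes 496 residues, was at 8.17 TPM in mESCs and 22.6 TPM in NIH3T3 cells, or 17.8% and 24.0% of the gene. Aebp2-206 and Aebp2-205, which encode 288 residues, were jointly at 23.7 and 53.4, or 51.6% and 56.6%. Aebp2-201, which encodes 274 residues, was nearly level at 8.22 and 9.01. The higher level of Aebp2 in NIH3T3 cells was thus seen in the long and in the 288-residue forms but not in the 274-residue form.

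Ezh1 was split differently in the 2 libraries. Its near-identical transcripts Ezh1-202 and Ezh1-203 (747 and 750 residues) were at 4.96 and 4.51 in mESCs, whereas in NIH3T3 cells Ezh1-202 was at 3.03 and Ezh1-203 at essentially 0. Jointly they stood at 9.47 and 3.03, a ratio of 3.13. Transcripts annotated for nonsense-mediated decay took 42.5% of the TPM of Suz12 in mESCs and 31.0% in NIH3T3 cells, in both cases as short fragments. These fragments, Suz12-202 and Suz12-204, had 211 and 179 of the gene's 8435 estimated counts in mESCs. In NIH3T3 cells they had 71.9 and 67.7 of 4671. Suz12-201, with 741 residues, was the leading form in each line. For Eed, retained-intron and processed forms took 44.0% and 44.5%, and Eed-201, with 441 residues, took 48.4% and 48.3%, so its 6.68-fold difference in summed protein-coding TPM came with almost no difference in composition.

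**Figure D2:**
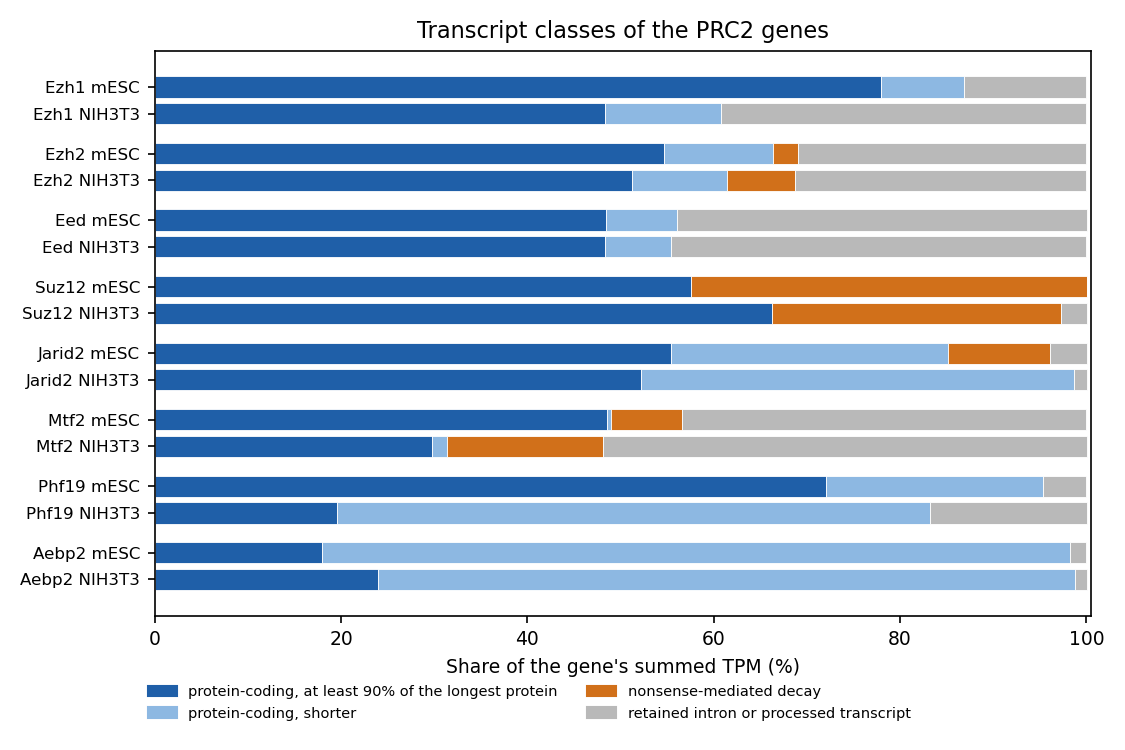
Share of each gene's summed TPM (percent) by class of transcript, with 1 bar per gene and cell line. Dark blue marks protein-coding transcripts whose protein has at least 90% of the residues of the longest one, light blue shorter protein-coding forms, orange those annotated for nonsense-mediated decay and grey retained introns and processed transcripts. The bars of Eed are nearly alike, with 48.4% and 48.3% in the long form, while that of Phf19 shows 72.1% in mESCs and 19.6% in NIH3T3 cells. Phf19 had only 56 estimated counts in NIH3T3 cells.

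Ctr9 peaks were found at all 8 genes in mESCs and at 6 in NIH3T3 cells, where Ezh1 and Phf19 had none. Peaks of this kind were common: 44.1% of all protein-coding genes had a Ctr9 peak in mESCs and 25.8% in NIH3T3 cells. Among genes with a TPM of at least 10 in the same line the shares were 87.4% in mESCs and 56.9% in NIH3T3 cells, and the PRC2 genes in that class all had one, 7 of 7 in mESCs and 4 of 4 in NIH3T3 cells. Most other genes at that level had one too, in mESCs above all. The extent and place of the peaks differed more between the members.

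In mESCs, Ctr9 peaks ran over most of the length of Mtf2 and Eed (coordinates are on mm10). At Mtf2 (chr5:108065674-108109004, plus strand), 36 peaks took 83.6% of the window, and at Eed (chr7:89954654-89980983, minus strand), 20 peaks took 79.7%. At Jarid2 (chr13:44729474-44921643, plus strand), a gene of 192 kb, 173 peaks took 62.4%, and only 2 protein-coding genes, Jarid2 included, had that many. Suz12 (chr11:79993106-80034123, plus strand) had 29 peaks over 33.8% of its window. Coverage was larger at Mtf2, Eed, Jarid2 and Suz12 than at 98.3%, 97.5%, 93.3% and 79.7% of the 5644 genes that had a TPM of at least 10 and a Ctr9 peak.

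The remaining genes had less Ctr9 coverage in mESCs, each below the median of 11.9% over those 5644 genes. Coverage at Aebp2, Ezh2, Phf19 and Ezh1 was larger than at 45.6%, 40.5%, 27% and 23.8% of them. Aebp2 and Ezh2 were thus not far from the middle. At Ezh2 (chr6:47530139-47595341, minus strand), 8 peaks took only 8.53% of the window. These peaks covered 91.0% of the 5 kb downstream of the gene and at most 4.59% of any of 4 equal parts of its body. The downstream peaks also lie in the window of a neighbouring gene, Cul1. Aebp2 (chr6:140622663-140678472, plus strand) had 7 peaks over 10.2%, Ezh1 (chr11:101191115-101226463, minus strand) 3 over 3.96% and Phf19 (chr2:34893757-34914026, minus strand) 2 over 4.68%. The 4 widely covered genes were also the 4 with the highest single transcripts in mESCs, from 90.8 TPM for Suz12 upwards against 67.8 TPM for Ezh2, whereas by summed protein-coding TPM Ezh2 (151) stood above Mtf2 (107) and Suz12 (104).

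NIH3T3 cells showed much narrower Ctr9 coverage at Mtf2, Eed, Suz12 and Jarid2. The covered share was 5.76% at Mtf2, 4.84% at Eed, 6.88% at Suz12 and 0.754% at Jarid2, where all 5 peaks lay in the last of 4 equal parts of the body. The median share over the 3668 genes with a TPM of at least 10 and a Ctr9 peak in NIH3T3 cells was 5.97%. Ezh2 was nearly level between the lines, at 7.95% in NIH3T3 cells against 8.53% in mESCs. In both lines most of those bases lay downstream of Ezh2, in peaks that also lie in the window of its neighbour Cul1. Coverage without shared peaks was not computed. Aebp2 was the only member with wider coverage in NIH3T3 cells, 12964 bases against 6302 bases in mESCs. The mESC list holds 44748 peaks and the NIH3T3 list 22016, and depths are unknown. With the mESC list reduced to its 22016 strongest peaks by q, Jarid2 kept 110 peaks, Mtf2 31, Eed 17 and Suz12 16. That step evens the number of peaks but not the depth, and coverage was not recomputed.

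The Ctr9 peaks of both lines were also compared by position. Of the 31 peaks in NIH3T3 cells, 25 (80.6%) overlapped one of mESCs, whereas 24 of the 278 mESC peaks (8.63%) overlapped one of NIH3T3 cells. Over the whole lists the shares were 39.1% of the NIH3T3 peaks and 17.8% of the mESC peaks, and the members' shares come with mESC peaks that already took most of the Jarid2, Eed and Mtf2 windows. At Jarid2, Mtf2 and Eed every peak of NIH3T3 cells lay on one of mESCs. Aebp2 had 7 of 7 mESC peaks on a NIH3T3 peak and 4 of 8 NIH3T3 peaks on an mESC peak.

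**Figure D3:**
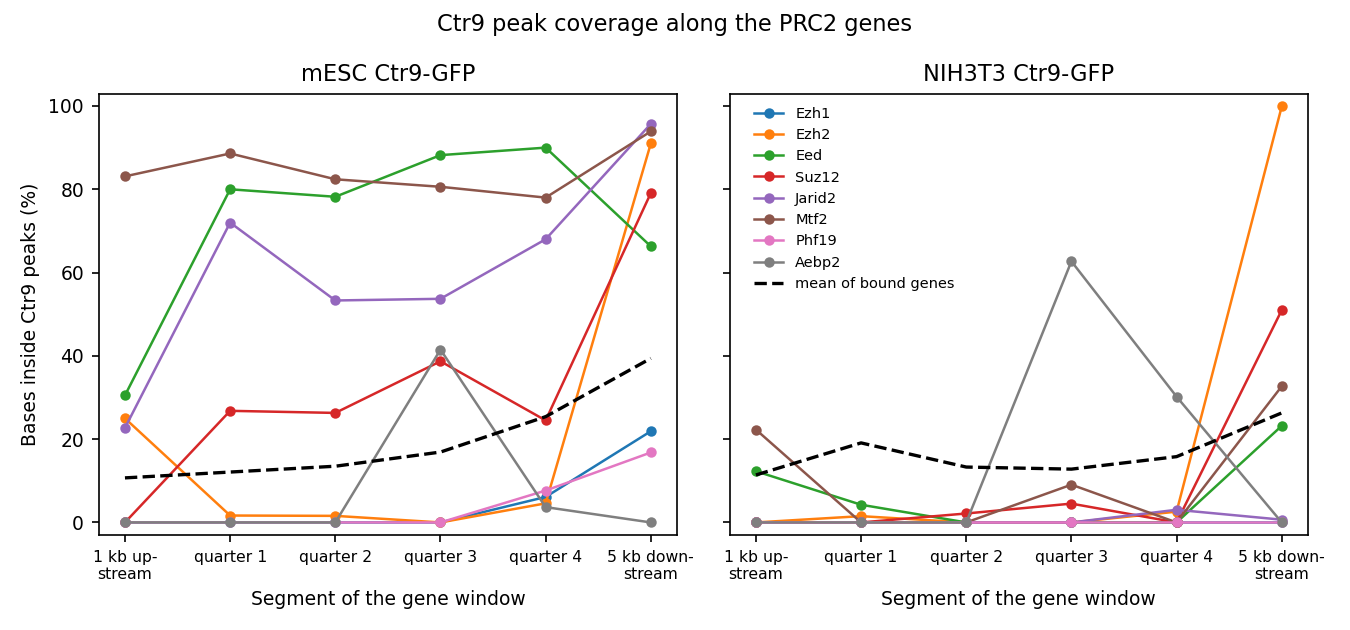
Percent of bases inside Ctr9 peaks in 6 consecutive segments of each gene window (1 kb upstream, the body in 4 equal parts, 5 kb downstream), in mESCs (left) and NIH3T3 cells (right). Each coloured line is 1 gene, and the dashed line is the mean over genes with a TPM of at least 10 and a Ctr9 peak in that line. In mESCs, Mtf2, Eed and Jarid2 stay above 53% through the body, while Ezh2 rises to 91.0% downstream of the gene, and in NIH3T3 cells coverage is mostly downstream, with Aebp2 at 62.7% in the third part of its body.

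In mESCs the strongest Ctr9 peak lay past the 3′ end at Eed, Suz12, Ezh2 and Jarid2. The one of Eed had a fold enrichment of 17.9 (pileup at the summit over the local background), was 4891 bases wide and had its summit 1412 bases past the end of the gene. Suz12 had its strongest peak, of 10.1, with the summit 2233 bases past the end, Ezh2 one of 8.48 at 2308 bases past it, and Jarid2 one of 8.47 at 4878 bases past it. At Mtf2 the strongest peak, of 17.3, was centred 183 bases downstream of the start, and another, of 15.4 and 8462 bases wide, reached past the end. Over the whole mESC list the median fold enrichment was 3.71 and the 90th percentile 5.90. Those values are for single peaks. For the strongest peak per gene, over the 5644 genes with a TPM of at least 10 and a Ctr9 peak, the median was 6.1. The 90th percentile of these strongest peaks was 13.4. Eed and Mtf2 lay above it, whereas Suz12, Ezh2 and Jarid2 lay between the median and that percentile. The strongest peaks of Ezh2 and Jarid2 also lie in the window of a neighbouring gene.

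Several of these downstream peaks are shared with a neighbour. Tmed5, Cul1 and Dtnbp1 run towards the 3′ ends of Mtf2, Ezh2 and Jarid2 from the opposite side, with highest-transcript TPM in mESCs of 14.2, 54.0 and 11.5. The peaks past the ends of these 3 genes also lie in the windows of those neighbours, and so do all Ctr9 peaks of Ezh1 (with Cntnap1, at a TPM of 0 in mESCs) and Phf19 (with Cutal, at 0.142). Counting only peaks outside every other gene's window, Ctr9 remained at 6 of the 8 genes in mESCs, without Ezh1 and Phf19. The strongest peaks of Ezh2 and Jarid2 were then 4.02 and 5.97. Both values are under the median strongest peak of 6.1 given above, which does count shared peaks. The peaks past the ends of Eed and Suz12 are shared with no protein-coding gene.

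The strongest NIH3T3 peak of Ezh2 lay at nearly the same place as that of mESCs. At Ezh2 a single peak of 5300 bases with a fold enrichment of 12.3 had its summit 2262 bases past the gene end, against 2308 bases in mESCs. This NIH3T3 peak too lies in the window of Cul1, whose highest transcript was at 90.05 TPM in NIH3T3 cells. The strongest NIH3T3 peak of Ezh2 outside every other gene's window was 3.17. At Aebp2 the annotated gene ends at 55.8 kb because of 1 rare transcript, while Aebp2-206 and Aebp2-202 end 30163 bases and Aebp2-201 ends 32818 bases from the start. All 7 Ctr9 peaks of mESCs lay past both ends, as did 6 of 8 in NIH3T3 cells, and the strongest (7.08 in mESCs and 8.89 in NIH3T3 cells) were centred 5363 and 11939 bases past the end of Aebp2-206. Measured from the ends of its leading transcripts, Aebp2 thus carried Ctr9 on the downstream side as well.

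**Figure D4:**
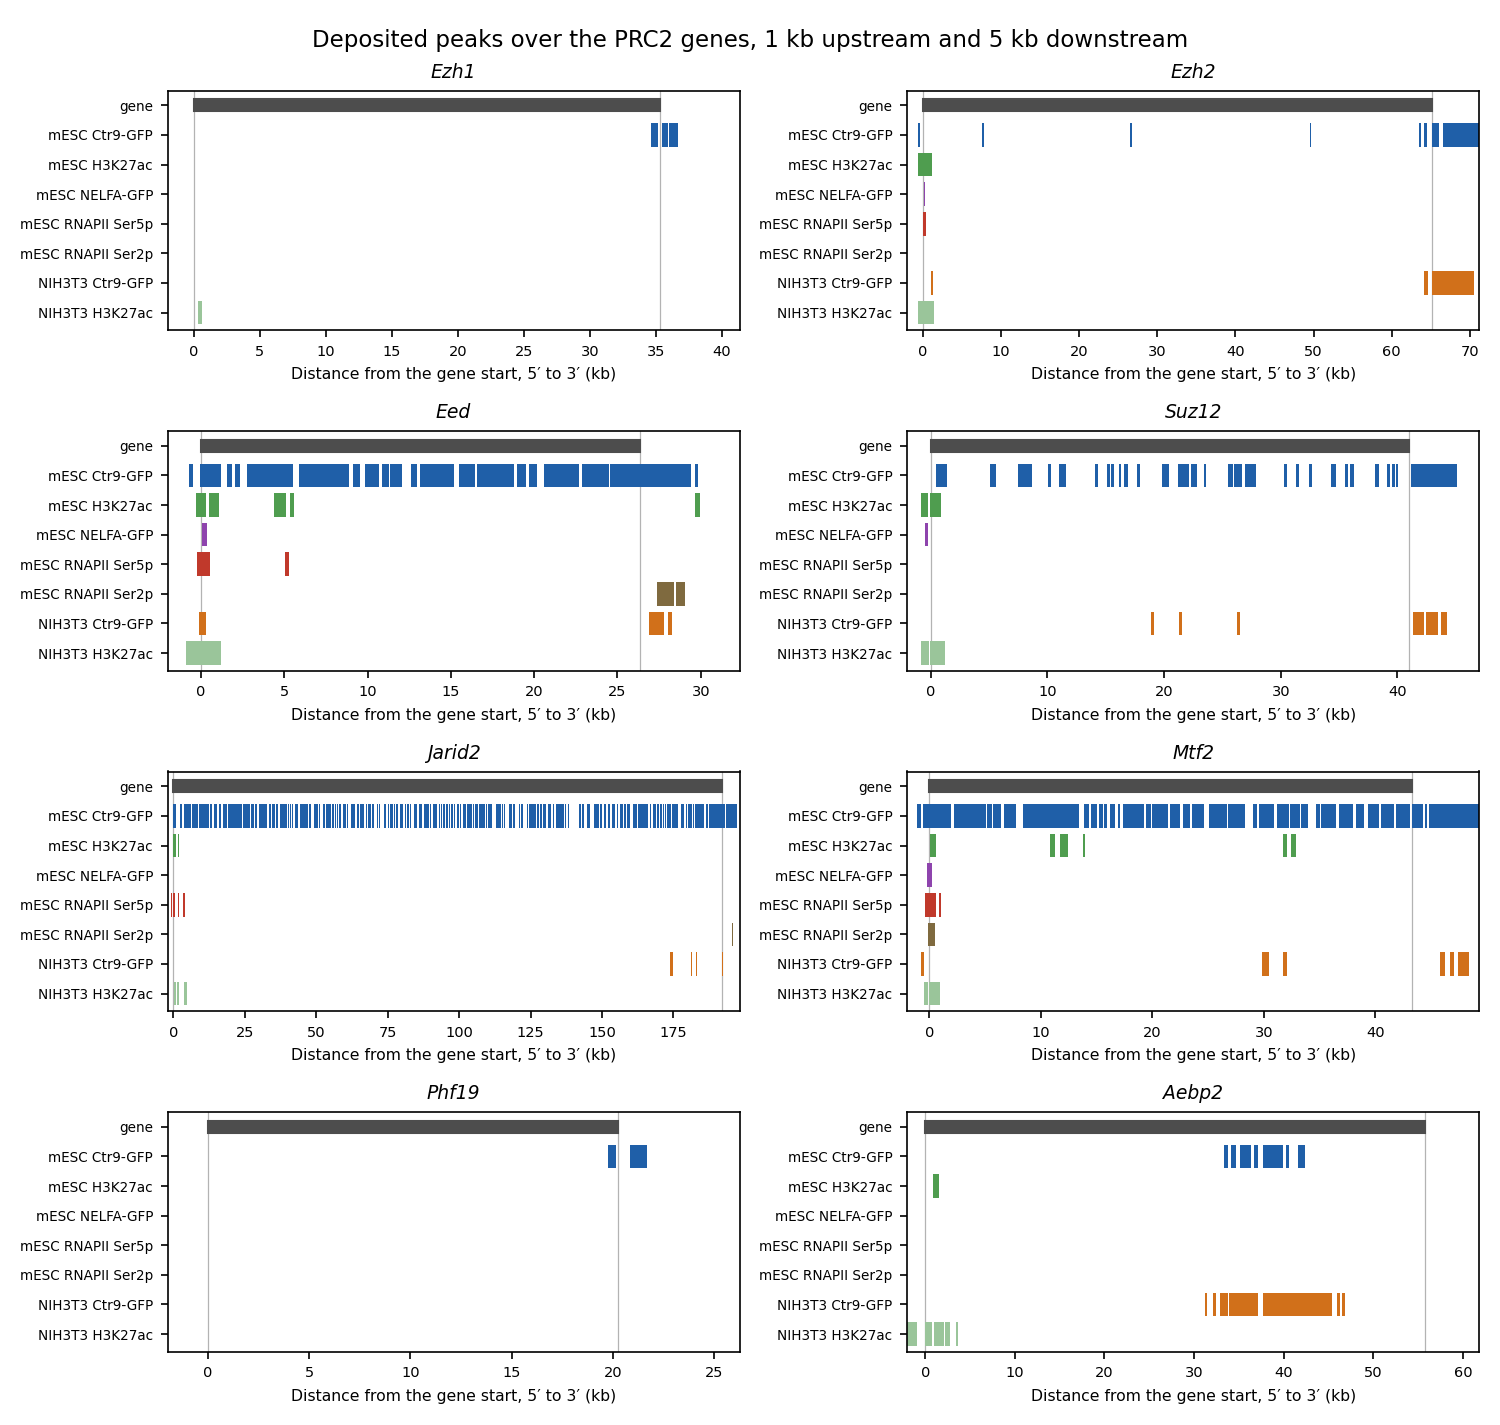
Peaks of the 7 lists over each PRC2 gene, drawn 5′ to 3′ as distance from the gene start (kb), with the annotated gene as a dark bar and 1 row per list. Peaks narrower than the drawing can show are widened slightly, and those that run past the panel are cut at its edge. Ctr9 of mESCs (blue) runs through Eed, Mtf2 and Jarid2 and lies only near the 3′ end at Ezh1 and Phf19, while NELFA-GFP peaks stand at the start.

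H3K27ac marked the starts of most of the genes in both lines. In mESCs 6 of 8 genes had an H3K27ac peak, against 43.1% of all protein-coding genes, and 6 of the 7 with a TPM of at least 10, against 86.2%. In NIH3T3 cells 7 of 8 had one, against 54.7% of all genes, and 4 of 4 with a TPM of at least 10, against 97.4%. Phf19 lacked H3K27ac in both, and Ezh1 had a weak peak in NIH3T3 cells only, with a fold enrichment of 5.82 at 443 bases from the start, although its RNA was higher in mESCs.

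Fold enrichment in mESCs was 6.31 at Eed with the summit 114 bases upstream of the start, 7.37 at Mtf2 with the summit 200 bases downstream, 6.96 at Ezh2, 6.31 at Suz12, 4.91 at Jarid2 and 5.07 at Aebp2. In NIH3T3 cells the same genes had 39.8, 31.8, 16.0, 18.0, 24.5 and 27.97, with the strongest summit of Eed 111 bases upstream and that of Mtf2 210 bases downstream of the start. The NIH3T3 values were higher at all 6 genes, and that list had higher values in general, with a median over all its peaks of 6.75 against 3.97 in mESCs, so the 2 lists are not on one scale and their values are set side by side only. Within NIH3T3 cells, the strongest H3K27ac peaks of Jarid2 and Mtf2 were above 19.7, the 90th percentile of that list, with highest transcripts at 3.67 and 9.93 TPM. Those of Eed and Aebp2 were above it too. That percentile is for single peaks, and the strongest peak per gene was not summarised over all genes for H3K27ac.

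Beyond the start, H3K27ac inside the gene body was found in mESCs at Eed, with summits 4843 and 5467 bases from the start, and at Mtf2, with summits 11021 to 13852 and 31889 to 32730 bases from the start. None of these had a counterpart in NIH3T3 cells at those genes. At Eed the nearby RNAPII Ser5p peak was centred at 5257 bases. The Mtf2 summits from 11021 to 13852 bases lie around its second RefSeq start, at 12491 bases. NIH3T3 cells in turn had body summits without a counterpart in mESCs, at 3849 and 4367 bases in Jarid2 and at 2401 and 3538 bases in Aebp2. Of the 17 H3K27ac peaks of mESCs at the 8 genes, 14 (82.4%) overlapped a Ctr9 peak, and 3 of 16 (18.8%) did in NIH3T3 cells. Most of the 14 were the 5 of Eed and the 6 of Mtf2. Ctr9 peaks already took 79.7% and 83.6% of those windows, so overlap there says little. Over the whole lists, 23.1% of H3K27ac peaks in mESCs and 12.7% in NIH3T3 cells overlapped a Ctr9 peak.

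**Figure D5:**
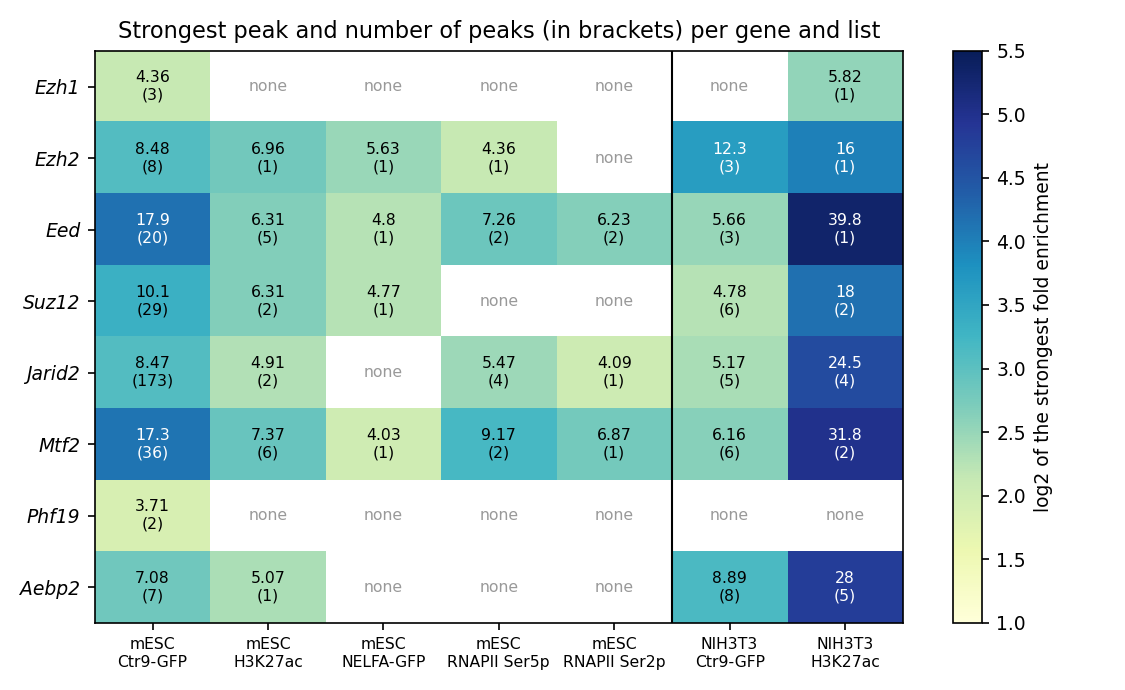
Fold enrichment of the strongest peak for each PRC2 gene and list, with the number of peaks in brackets and the colour on a log2 scale. Lists differ in level, so genes can be compared only within a list. Mtf2 and Eed have a peak in all 7 lists, while Phf19 has only 2 weak Ctr9 peaks in mESCs, the stronger at 3.71.

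NELFA and RNAPII Ser5p, measured in mESCs only, stood at the starts of overlapping but not identical sets of genes. NELFA was found at Ezh2, Eed, Suz12 and Mtf2, 4 of 8 against 10.4% of all protein-coding genes, and 4 of 7 with a TPM of at least 10 against 24.8%. RNAPII Ser5p was found at Ezh2, Eed, Jarid2 and Mtf2, again 4 of 8, against 12.8%, and 4 of 7 against 30.6%. RNAPII Ser2p was found at Eed, Jarid2 and Mtf2, 3 of 8 against 6.99%, and 3 of 7 against 16.5%. The core subunit genes Ezh2 and Eed and the accessory gene Mtf2 thus had both NELFA and Ser5p, whereas Suz12 had NELFA without Ser5p and Jarid2 had Ser5p without NELFA.

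Mtf2 had a summit of all 5 mESC lists within 200 bases of its start. The NELFA summit lay 29 bases upstream of the start (fold enrichment 4.03), Ser5p 49 bases upstream (9.17), Ser2p 54 bases downstream (6.87), Ctr9 183 bases downstream (17.3) and H3K27ac 200 bases downstream (7.37). This was the only member with a Ser2p summit within 1 kb of its start. At Eed, NELFA was centred 202 bases and Ser5p 198 bases downstream of the start (4.80 and 7.26), with the nearest Ctr9 summits 596 bases upstream and 614 bases downstream, and Ser2p lay 1751 and 2352 bases past the gene end, under the strongest Ctr9 peak. An antisense noncoding gene, E230029C05Rik, overlaps the first 260 bases of Eed and was at 0.216 TPM in mESCs, and peaks do not tell the strands apart.

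At Ezh2, NELFA lay 215 bases and Ser5p 153 bases downstream of the annotated start (5.63 and 4.36), with a weak Ctr9 peak of 3.03 centred 527 bases upstream. Suz12 had NELFA 325 bases upstream of the start (4.77) and its first Ctr9 summit 879 bases downstream (3.16). Jarid2 had 4 Ser5p peaks, and the strongest, of 5.47, was centred 1890 bases into the gene, beside the start of Jarid2-208 at 1797. Its single Ser2p peak was weak (4.09), lay 3469 bases past the gene end and is shared with Dtnbp1.

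The sequences just upstream of the start are shown for Ezh2 and Mtf2, where NELFA and Ser5p summits fall inside the printed stretch (at -96 and -158 from the RefSeq start of Ezh2, which lies 311 bases into the annotated gene, and at -29 and -49 from that of Mtf2), and for Suz12 and Phf19, which hold the same E2F-type letters but differ in peaks, with NELFA and H3K27ac at Suz12 and neither at Phf19. Each stretch is the 250 bases before a RefSeq start on GRCm38.p6, the same build as mm10, read 5′ to 3′ on the strand of the gene. All 8 genes matched the RefSeq promoter table, with 12 starts in all. Capitals in the first 3 mark the motifs searched, and in Mtf2, which held none of them, each CpG dinucleotide.
Ezh2, chr6:47595031-47595280, minus strand: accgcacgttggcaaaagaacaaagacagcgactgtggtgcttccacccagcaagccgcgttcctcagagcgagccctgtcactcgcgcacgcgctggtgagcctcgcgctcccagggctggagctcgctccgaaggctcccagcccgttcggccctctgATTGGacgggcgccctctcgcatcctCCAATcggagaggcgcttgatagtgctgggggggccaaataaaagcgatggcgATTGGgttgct
Suz12, chr11:79992856-79993105, plus strand: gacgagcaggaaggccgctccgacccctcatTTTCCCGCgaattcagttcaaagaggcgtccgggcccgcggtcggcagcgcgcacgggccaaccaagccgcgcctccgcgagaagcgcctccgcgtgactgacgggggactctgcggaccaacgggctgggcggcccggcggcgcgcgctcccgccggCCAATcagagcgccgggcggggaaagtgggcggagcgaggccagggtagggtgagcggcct
Phf19, chr2:34913977-34914226, minus strand: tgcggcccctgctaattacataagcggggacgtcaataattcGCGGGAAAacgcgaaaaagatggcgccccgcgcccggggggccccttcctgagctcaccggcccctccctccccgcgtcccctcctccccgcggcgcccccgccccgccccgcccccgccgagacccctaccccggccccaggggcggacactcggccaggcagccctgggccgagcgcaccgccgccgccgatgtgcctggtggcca
Mtf2, chr5:108065424-108065673, plus strand: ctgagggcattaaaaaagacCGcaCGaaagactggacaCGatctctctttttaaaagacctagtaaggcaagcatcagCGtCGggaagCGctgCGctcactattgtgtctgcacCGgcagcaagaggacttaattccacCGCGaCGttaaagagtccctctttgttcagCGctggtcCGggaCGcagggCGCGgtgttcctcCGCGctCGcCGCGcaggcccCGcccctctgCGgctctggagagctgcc

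Both strands of each stretch of 300 bases, 250 before and 50 after the start, were searched for 2 E2F-type motifs, an ETS-type motif and the CCAAT box, and positions are counted from the first transcribed base as 0. TTTCCCGC was found at Suz12 at position -219 and on the opposite strand of Phf19, and it occurs in 1.07% of 32851 promoters. TTTGGCGC was found at Ezh2 at position 3, after the start and outside the printed stretch, and it occurs in 0.514%. Either E2F motif was thus in 3 of the 12 promoters, against 1.56% of all. CCGGAAGT, the ETS-type motif, was in none of the 12 and in 3.89% of all. ATTGG, the CCAAT box read on either strand, was in 7 of the 12, among them Ezh2 at -90, -64 and -11 and Suz12 at -61, and in 37.4% of all. The matches do not overlap one another, and a match is a description only.

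CpG dinucleotides were frequent at most of the starts. The first RefSeq start of each gene had 17 to 41 CpGs in its 300 bases, highest at Suz12 (41) and Phf19 (38), except for Aebp2 with 4, against a median of 7 over all promoters (quartiles 3 and 20). The second start of Aebp2, 2246 bases into the gene and also the start of Aebp2-205, had 21, with H3K27ac summits at 1144 bases in mESCs and at 1152 and 2401 bases in NIH3T3 cells. In the printed part of Mtf2 there were 23 CpGs, inside a Ctr9 peak of 2570 bases in mESCs. None of the 7 lists had a peak at the CpG-rich start of Phf19.

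Other Polycomb genes were read for the same 2 libraries. RBBP4 and RBBP7, histone-binding proteins that are shared with other complexes and complete the PRC2 core, were near level: the highest transcript of Rbbp4 was at 152.6 TPM in mESCs against 118.6 TPM in NIH3T3 cells (log2 difference 0.36) and that of Rbbp7 at 131.2 and 172.7 TPM (-0.39). Of 6 PRC2 partners listed, Rbbp4 and Rbbp7 among them, 5 were found by symbol, with a median log2 difference of -0.16, and Epop alone was past 2-fold. Epop, an accessory subunit known from mESCs, stood at 263.4 TPM in mESCs and 1.04 TPM in NIH3T3 cells (7.01), and Phf1, the third Polycomb-like gene, at 3.97 and 8.81 (-0.98), opposite in direction to Mtf2 and Phf19.

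The genes of PRC1, the complex that ubiquitinates histone H2A and partly follows the PRC2 mark, split both ways. Of 21 listed, 6 were at least 2-fold higher in mESCs and 8 in NIH3T3 cells. The shares over the 12379 protein-coding genes were 23.8% and 20.0%. The median log2 difference was -0.62 over the 21 genes and 0.13 over the 12379 genes. Cbx7 (56.7 in mESCs and 1.36 in NIH3T3 cells, 4.61) and Phc1 (72.7 and 11.4, 2.57) led on the mESC side, and Bmi1 (8.88 and 53.4, -2.46) was among those higher in NIH3T3 cells. Cbx7, which encodes a reader of methylated H3K27, had 37 Ctr9 peaks in mESCs against 1 in NIH3T3 cells. Of the enzymes that remove the mark, Kdm6a was at 19.1 and 5.96 (1.53) and Kdm6b at 9.92 and 12.4 (-0.30).

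The genes most like the 2 catalytic subunits were found from 9 values per gene, the 2 RNA levels as log2(TPM + 1) and the log2 of the strongest fold enrichment plus 1 in each list, by Euclidean distance. For Ezh2 they were Polr1c, Dhps and Cnot9, each at a distance of 1.02, with TPM of 53.2 to 87.0 in mESCs and 32.9 to 41.4 in NIH3T3 cells, and like Ezh2 they had a peak in every list other than Ser2p. For Ezh1 they were Rab29 (0.32), Hemk1 (0.33) and Mns1 (0.42), all with 3.97 to 4.98 TPM in mESCs, a strongest Ctr9 peak of 3.22 to 5.04 in mESCs and H3K27ac in NIH3T3 cells only.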

How the data were processed

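The data are 7 lists of ChIP-seq peaks and 2 RNA-seq tables, 1 library each. Of the 12 samples, 9 have a file that was used, and 3 input libraries were not analysed here. Per the submitters' processing notes, Bowtie2 2.3.5.1 (genome mm10) and MACS2 2.2.6 were used by the authors to align ChIP-seq reads and call peaks, and the methods give a q-value cutoff of 0.01 and removal of blacklisted regions. Fold enrichment, as deposited, is the ratio of summit pileup to local background, −log10 p-values and q-values were deposited for the summit, and the deposited score is 10 times −log10 of q. For each transcript of GENCODE M19 the authors deposited an estimated count and a TPM value from kallisto 0.46.1, and TPM adds up to 1000000 in each library. RNA libraries were strand-specific.

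Genes were placed with GENCODE M21 on the same build, and 33 of 21938 annotated protein-coding genes that were not listed in the tables were left out. A peak belonged to a gene when it shared at least 1 bp with the body, 1 kb upstream or 5 kb downstream. Count intervals are exact Poisson and ratio intervals exact Clopper-Pearson, both at 95% and for counting error only. No group had replicates, so no test was run across genes. Values were computed with NumPy 2.4.6, SciPy 1.17.1 and pandas 2.3.3 under Python 3.11.15, and figures were drawn with Matplotlib 3.10.9. The code was tested on simulated data. The genes and lists were chosen with earlier results of these data known. Named genes were the 8 PRC2 genes, the 2 largest differences in each direction of each Polycomb list with Rbbp4, Rbbp7, Kdm6a and Kdm6b, the 3 genes nearest to Ezh2 and Ezh1, and neighbours whose body lies in a window. A gene that this rule names in the PRC1 list is not reported here. Alternatives changed the transcript summary, the pseudocount (0.1 for 1), the scale, the filter, the threshold on q, the window, the overlap rule and the number of peaks, and one, the highest protein-coding transcript, was chosen after seeing the data.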

Additional observations from a re-analysis of the deposited data

How the results depend on the processing

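The counts of members by RNA difference, by peak and by summit near the start were recomputed under the alternatives, and 49 of 51 values stayed within 1.5 times the reported count. The members at least 2-fold higher in mESCs numbered 4 on the highest transcript, on the highest protein-coding transcript, with a pseudocount of 0.1, after division by the median TPM and with no filter, and 6 on summed TPM, on summed protein-coding TPM and on counts scaled to the library total, the additions coming from Ezh1, Ezh2 and Suz12. Those higher in NIH3T3 cells numbered 1, Aebp2, and 0 on scaled counts, where its log2 difference was -0.97. The members with a Ser2p peak numbered 3 and fell to 1, Mtf2, with only 1 kb on each side of the gene, since the peaks of Eed and Jarid2 lie further downstream. No difference of a single gene turned its sign under any of the 56 recomputed values, of which those with no filter repeat the main values. With the start of the leading protein-coding transcript in place of the gene start, members with a Ctr9 summit within 1 kb in NIH3T3 cells numbered 3 in place of 2. No paired analysis was possible because each group had 1 library, and leaving out a replicate was not possible for the same reason. Counts of overlapping peaks and of shared leading transcripts were not recomputed. The unknown depth of the ChIP-seq libraries limits every comparison of peak numbers between lists.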
